A study of Mus musculus with 11 samples.

Results

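The core circadian clock is represented here by 10 genes, chosen by name: *Clock*, *Per1*, *Per2*, *Per3*, *Cry1*, *Cry2*, *Nr1d1*, *Nr1d2*, *Dbp* and *Tef*. All 10 have a row among the 19329 genes of the deposited RNA-sequencing table. Whole pancreatic islets of 14-week-old male, chow-fed C57BL/6N mice gave bulk RNA-sequencing libraries, 6 of wild-type mice and 5 of mice homozygous for the CRISPR-made PDX1 P33T point mutation, in which the transcription factor PDX1 carries threonine in place of proline. Per the sample records the mice lived under 12 h of light per day, and per the methods they were fasted before sacrifice. Their islets were then kept in culture medium with serum for a day or more, so all levels here are those after culture. The legend of the study allows a library to be a pool of mice, so n counts libraries, and p-values measure the spread between them. The hour at which islets were collected is not given in the sources used here, so no phase was assigned to any library.

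The mammalian clock is a feedback loop of transcription. CLOCK and its partner BMAL1 bind E-boxes and switch on the *Per* and *Cry* genes, whose proteins then block CLOCK and BMAL1, while the REV-ERB receptors (*Nr1d1*, *Nr1d2*) repress *Bmal1* and the ROR receptors activate it. DBP and TEF are PAR bZIP factors that carry the rhythm to output genes through D-boxes. Beta cells hold such a clock, and it is known for timing insulin secretion.

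Levels are FPKM, fragments scaled for transcript length and for the depth of the library, and differences between genotypes are on the log2(FPKM + 0.1) scale. Mutant values stand on the rows of their own genes. Wild-type values mostly do not, and were used only where the row could be identified, by the read counts that the study published or by the recovered gene length and level. This held for 6 of the 10 clock genes: *Nr1d1*, *Dbp* and *Tef* by reads, and *Clock*, *Per3* and *Cry2* by length and level. The published reads used here are the opening part of a list the study made on these same samples. For genes found by them, p-values are not independent evidence. Over all genes the comparison held 4713. In bulk islets, fewer cells of a type and less RNA per cell cannot be told apart. The libraries held 19311937 to 37094286 reads. The 4 beta cell markers readable in both genotypes (*Ins1*, *Ins2*, *Iapp*, *Mafa*) summed to between 199833 and 280771 FPKM in wild-type and between 235571 and 333129 in the mutant. *Ppy*, the marker of PP cells, ran from 6397 to 14937 FPKM in wild-type and from 2916 to 9821 in the mutant, and 3 endothelial markers summed to 28.1 to 146 and 22.0 to 51.4. In each case the groups overlapped, and the part of cell composition in the clock values was not tested. How far each library lay from its group was read from the SD of its log2 difference from the others. In wild-type, over the 4713 genes compared, replicates 3 and 1 lay farthest, at 0.610 and 0.506 against 0.233 to 0.366. In the mutant, replicate 2 lay farthest, at 0.486 against 0.206 to 0.268. The mutant SDs cover 11190 genes of at least 1 FPKM, so they are not on the same genes as those of wild-type.

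Clock factors act through short elements, some of which lie just before the transcription start. RefSeq promoter entries (GRCm38.p6, matched by symbol) covered 9 of the 10 genes, all but *Per2*. Each window holds the 250 bases before a start, and 5 motifs were searched on both strands: the E-box CACGTG, the E-box-like CACGTT, the D-box TTATGTAA or TTACGTAA, the ROR element core AGGTCA and the cAMP response element TGACGTCA. The 4 windows printed are those of genes compared between genotypes that hold an E-box, an E-box-like motif or a D-box and no annotated exon. Capitals mark the matches, none of which overlap.
*Nr1d1*, chr11:98775378-98775627, minus strand: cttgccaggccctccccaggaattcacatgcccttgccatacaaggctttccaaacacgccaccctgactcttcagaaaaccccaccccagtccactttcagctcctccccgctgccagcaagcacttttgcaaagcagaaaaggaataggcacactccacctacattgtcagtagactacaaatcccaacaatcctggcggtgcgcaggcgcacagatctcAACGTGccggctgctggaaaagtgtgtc
*Cry2*, chr2:92434070-92434319, minus strand: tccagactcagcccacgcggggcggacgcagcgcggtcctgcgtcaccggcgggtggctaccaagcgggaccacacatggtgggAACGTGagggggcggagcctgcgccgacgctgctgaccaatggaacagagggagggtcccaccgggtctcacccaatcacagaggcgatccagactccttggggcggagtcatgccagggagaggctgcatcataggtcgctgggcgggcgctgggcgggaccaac
*Per3*, chr4:151044666-151044915, minus strand: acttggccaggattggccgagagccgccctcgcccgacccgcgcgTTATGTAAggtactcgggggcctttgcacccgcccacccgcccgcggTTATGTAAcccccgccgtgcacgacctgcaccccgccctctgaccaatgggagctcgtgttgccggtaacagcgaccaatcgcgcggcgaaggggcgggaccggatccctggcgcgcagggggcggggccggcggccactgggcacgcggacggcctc
*Tef*, second start, chr15:81811164-81811413, plus strand: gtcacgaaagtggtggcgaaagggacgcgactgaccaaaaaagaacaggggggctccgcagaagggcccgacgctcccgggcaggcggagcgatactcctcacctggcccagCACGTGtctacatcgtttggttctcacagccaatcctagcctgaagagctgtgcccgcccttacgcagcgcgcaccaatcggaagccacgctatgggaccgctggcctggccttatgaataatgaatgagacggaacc
The *Per3* window holds 2 copies of the D-box, a motif found in 0.931% of all 32851 promoter windows. The *Tef* window holds 1 E-box (6.02% of all windows). The window of the other *Tef* start also has one, but all 250 bases of that window lie on annotated exons. *Nr1d1* and *Cry2* each hold AACGTG, the reverse strand of the E-box-like motif, which 3.85% of windows hold. Beyond the windows printed, an E-box was found before *Per1* and *Cry1*, an E-box-like motif before *Cry1*, and the ROR element core (14.0% of windows) before *Per1*, *Nr1d2* and the third start of *Clock*. The cAMP response element (1.55% of windows) was found in 0 of the 13 windows of these genes, and the *Dbp* window held none of the 5 motifs. These matches describe the letters in the window and do not show that a factor binds there.

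In the mutant islets, whose values cover all 10 genes, the levels fell into 4 tiers. The output factors *Dbp* and *Tef*, the REV-ERB genes and *Cry2* formed the top tier of 5 genes, *Cry1*, *Per1* and *Clock* the next, and *Per2* and then *Per3* came last. In FPKM, which accounts for transcript length, the mean levels (SD, n = 5) were 13.4 ± 9.55 for *Nr1d2*, 11.8 ± 1.85 for *Dbp*, 10.4 ± 1.28 for *Nr1d1*, 9.80 ± 0.772 for *Cry2* and 8.78 ± 0.596 for *Tef*. Each of these overlapped its neighbour in range, so the order of neighbours is not resolved, and *Nr1d2* led by its mean only: it was above *Dbp* in 1 of 5 libraries. *Tef* stood above *Cry1* (4.65 ± 0.478) in all 5 libraries without overlap. The ranges of *Cry1*, *Per1* (4.01 ± 0.447) and *Clock* (3.51 ± 0.314) overlapped from neighbour to neighbour. *Clock* was above *Per2* (1.69 ± 0.222) and *Per2* above *Per3* (0.477 ± 0.0560) in all 5 libraries, again without overlap.

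**Figure D1:**
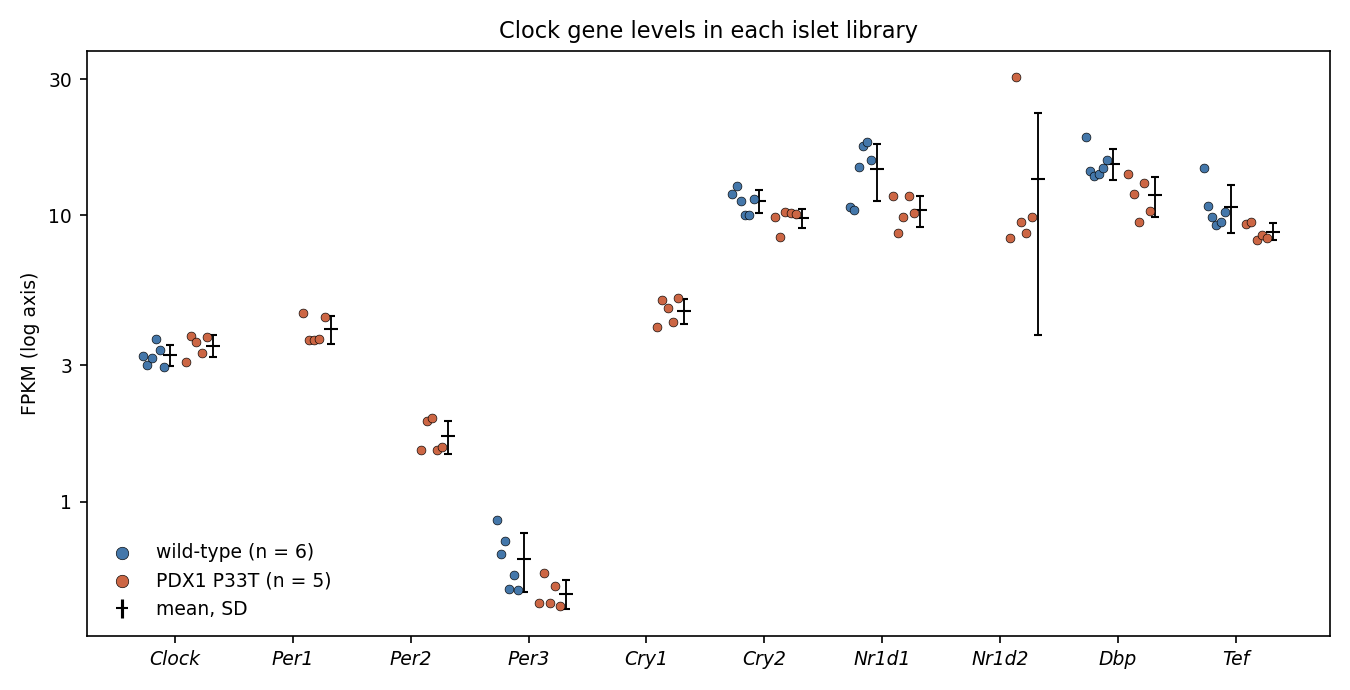
FPKM on a log axis of the 10 clock genes in each library, wild-type in blue (n = 6) and PDX1 P33T in orange (n = 5), with the mean and SD beside the points and no wild-type points where the row was not identified. *Per3* lies lowest, near 0.477 FPKM in the mutant, the points of both genotypes overlap for all 6 genes compared, and a single mutant library carries *Nr1d2* at 30.4 FPKM.

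*Clock* (chr5:76209868-76304792 of GRCm38, the build of all positions given here, with gene bounds from GENCODE vM21), the DNA-binding activator that pairs with BMAL1, was among the steadiest of the genes. The 5 mutant libraries, replicates 1 to 5, had 3.06, 3.78, 3.62, 3.30 and 3.77 FPKM. The 6 wild-type libraries ran from 2.96 to 3.70 with a median of 3.20. The groups overlapped over nearly their whole range, and the mutant was 0.11 higher on the log2 scale (SE 0.09, 95% interval -0.09 to 0.30, limma adjusted p = 1; exact permutation p = 0.169). It was not called.

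For its partner *Bmal1* the mutant libraries had 1.01, 0.751, 1.36, 1.14 and 1.21 FPKM, from 134 to 335 reads per library. Its wild-type row was identified only under a wider limit chosen after the values were seen, at 0.428, 0.956, 0.819, 1.09, 0.963 and 1.19 FPKM. Replicate 1 was the lowest library in wild-type and replicate 2 in the mutant. The groups overlapped and *Bmal1* was not called (log2 difference 0.28, SE 0.22, limma adjusted p = 1). *Npas2*, the relative that can replace *Clock*, had 0.405 to 0.975 FPKM in the mutant, and *Bmal2* 0.0357 to 0.0523 (5 to 8 reads), so *Bmal2* was near the limit of detection.

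Of the repressors, the period genes spanned the widest range of levels. *Per1* (chr11:69095217-69109960), the period gene best known for an acute response to cAMP and light, had 4.57, 3.67, 3.68, 3.71 and 4.42 FPKM in the mutant, with replicates 1 and 5 above the other 3. *Per2* (chr1:91415982-91459324), the period gene central to rhythm in most tissues, had 1.52, 1.91, 1.95, 1.51 and 1.55, with replicates 2 and 3 above the rest. So the libraries high for *Per1* were not those high for *Per2*. *Per3* (chr4:151003652-151044665), with the D-boxes shown above, had 0.441, 0.561, 0.442, 0.507 and 0.432 FPKM, from 114 to 153 reads per library.

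Wild-type *Per3* was 0.862, 0.654, 0.728, 0.494, 0.552 and 0.492 FPKM in replicates 1 to 6. Replicates 1, 2 and 3 lay above every mutant library, 3 of the 5 mutant libraries lay below every wild-type library, and the other libraries overlapped. The log2 difference was -0.32 (SE 0.15, 95% interval -0.65 to 0.00, limma adjusted p = 0.608; exact permutation p = 0.052). *Per3* was therefore not called.

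The cryptochromes, the repressors that hold CLOCK and BMAL1 inactive, fell into different tiers of level. *Cry1* (chr10:85131700-85185064) had 4.06, 5.05, 4.74, 4.24 and 5.14 FPKM in the mutant. *Cry2* (chr2:92403646-92434043) had 9.91, 8.44, 10.3, 10.2 and 10.1, so that 4 libraries stood within 9.91 to 10.3 and replicate 2 stood below them. *Cry2* exceeded *Cry1* in every mutant library.

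Wild-type *Cry2* ran from 10.01 to 12.7 FPKM (median 11.3). 4 of its 6 libraries were above every mutant library and 2 mutant libraries were below every wild-type one. The log2 difference was -0.19 (SE 0.09, 95% interval -0.39 to 0.00, limma adjusted p = 0.594; exact permutation p = 0.052), and without PDX1 P33T replicate 2 it was -0.14. *Cry2* was not called, and *D930015M05Rik* on the opposite strand shares 295 of its 6320 exon bases.

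Among the REV-ERB genes, which repress *Bmal1*, *Nr1d1* (chr11:98767932-98775333) showed the largest genotype difference of the 6 genes compared, and it too missed the call. Mutant libraries had 11.7, 8.68, 9.85, 11.7 and 10.2 FPKM. Wild-type libraries had 10.7, 10.4, 14.7, 17.5, 18.1 and 15.6. Wild-type replicates 3 to 6 stood above every mutant library, whereas wild-type replicates 1 and 2 lay inside the mutant range. The log2 difference was -0.45 (SE 0.16, 95% interval -0.79 to -0.11, limma adjusted p = 0.499; exact permutation p = 0.043). The row of *Nr1d1* was found by the list the study made on these samples. Its p-values and its place as the largest difference are therefore not independent evidence. *Thra*, on the opposite strand, shares 263 of the 3077 exon bases of *Nr1d1*, and with the strand of the libraries not settled by the methods, reads there cannot be assigned.

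*Nr1d2* (chr14:18204054-18239127), the paralog of *Nr1d1*, set 1 mutant library farther from the others than any other of the 10 genes did. The 5 libraries had 8.32, 30.4, 9.46, 8.72 and 9.90 FPKM. Without replicate 2 the mean was 9.10 ± 0.716 (SD, n = 4). In that replicate the gene was 1.73 above the mean of the other 4 on the log2 scale, or 3.32-fold, and it ranked number 30 from the top among 11190 genes of at least 1 FPKM. *Nr1d1* was at its lowest in the same library, so the ratio of *Nr1d2* to *Nr1d1* was 3.50 there and 0.711 to 0.969 in the other 4.

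That library stood apart in other genes as well. A difference of more than 1 on the log2 scale upward was seen for 390 genes (3.49%), and the SD of the difference over all 11190 genes was 0.486. Its acinar markers (6 of the 7 on the list measured) summed to 90.4 FPKM, against 7.81 to 17.2 in the other mutant libraries. Lymphocyte markers summed to 15.8 FPKM there against 8.62 to 9.73, the 4 endothelial markers to 53.1 against 89.3 to 123, and the 5 beta cell markers to 333212 against 235634 to 289985. Of the 6 acinar markers 0 were listed at 0 in every mutant library, and their wild-type rows were not identified. The part of these other cell types in the *Nr1d2* value was not tested. Beyond *Nr1d2*, the clock genes named here that reach 1 FPKM had log2 differences from the other 4 libraries between -0.63 (*Nfil3*) and 0.42 (*Hlf*), with *Bmal1* at -0.58.

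**Figure D2:**
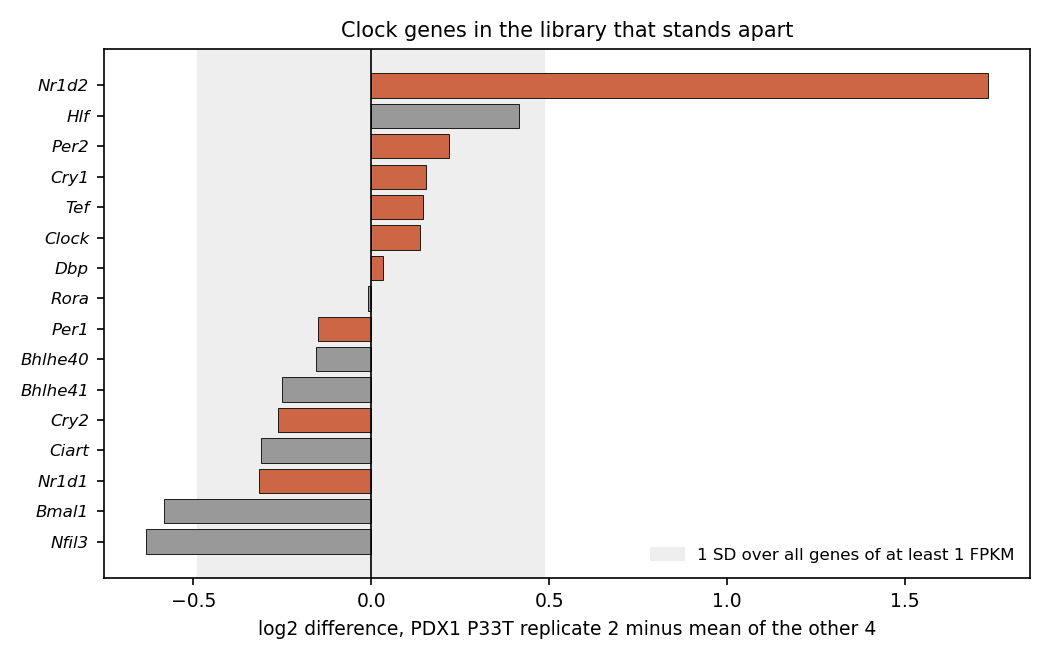
Log2 difference of PDX1 P33T replicate 2 from the mean of the other 4 mutant libraries for the clock genes named here that reach 1 FPKM on average, members of the 10 in orange and related genes in grey, over a band of 1 SD (0.486) of all 11190 genes. *Nr1d2*, at 1.73, is alone above the band, while *Bmal1* and *Nfil3* fall below it.

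The wild-type row of *Nr1d2* was not identified. The table holds 5 rows of its recovered length, 5409 bases, with wild-type means from 10.3 to 19.2 FPKM, and 4 other genes of that length lie at 10.6 to 15.9 FPKM in the mutant, so no row could be preferred. For *Per1* there were 2 rows, with wild-type values of 1.89 to 3.99 and of 3.82 to 6.20 FPKM, and the other gene of that length, *Ptdss2*, had 2.11 in the mutant. For *Cry1* the 3 rows had means of 0.581, 3.80 and 69.4 FPKM, and for *Per2* no row of its length was found. No fold change is given for these 4 genes.

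*Dbp* and *Tef* are outputs of the loop, and *Dbp* is known for one of the deepest rhythms of all. *Dbp* (chr7:45705088-45710203) had 14.0, 11.9, 9.49, 13.0 and 10.4 FPKM in the mutant. Wild-type libraries had 18.8, 14.3, 13.7, 14.0, 14.7 and 15.6. A single mutant library, replicate 1, reached the wild-type range, and the other 4 lay below every wild-type library. The log2 difference was -0.37 (SE 0.12, 95% interval -0.62 to -0.12, limma adjusted p = 0.498; exact permutation p = 0.013, where the smallest the design allows is 0.0043). The row of *Dbp* was found by the list the study made on these samples, so these p-values are not independent evidence. *Sphk2* on the opposite strand, at 13.2 FPKM in the mutant, shares 539 of the 2993 exon bases of *Dbp*.

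*Tef* (chr15:81802421-81826863), the gene of the pair with an E-box in the windows of both starts, was the steadiest member in the mutant, with 9.32, 9.52, 8.20, 8.52 and 8.36 FPKM. Wild-type libraries ran from 9.24 to 14.7 with a median of 10.1, and replicate 1 held the top value, with the next at 10.8. All 5 mutant libraries were below the wild-type mean, and 3 were below every wild-type library. The log2 difference was -0.27 (SE 0.12, 95% interval -0.52 to -0.02, limma adjusted p = 0.540; exact permutation p = 0.022). Without wild-type replicate 1 it was -0.18. The row of *Tef* was found by the same list as that of *Dbp*, so its p-values are not independent evidence either. The third PAR bZIP gene, *Hlf*, had the same top library in wild-type (2.25 FPKM, others 1.11 to 1.505), and its log2 difference was -0.20 (SE 0.16, limma adjusted p = 1).

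Of the 6 clock genes compared, 0 were called in either direction, where a call takes a limma adjusted p no higher than 0.05 together with a 1.5-fold change or more. Over all 4713 genes 0.0424% were called higher and 0.0424% lower. The groups overlapped for all 6, whereas the mutant lay below wild-type without overlap in 2.55% of all genes and above it in 2.31%. At an unadjusted p under 0.05, 4 of the 6 were lower in the mutant (*Cry2*, *Nr1d1*, *Dbp*, *Tef*) and 0 were higher, against 18.4% of all genes lower and 15.7% higher. This background depends on how a row was found: 48.5% of genes found by the published reads were lower at that level, and 1.81% of those found by length and level. The share higher was not split in this way, so these shares do not show a lean to lower values. *Nr1d1*, *Dbp* and *Tef* belong to the first kind, found in the opening part of a list the study made on these same samples. Neither their p-values, unadjusted or by permutation, nor their direction are therefore independent evidence, under any choice of libraries. The 6 log2 differences ran from -0.45 to 0.11 with a median of -0.30, and the median of all genes was -0.06. Without wild-type replicate 3 and PDX1 P33T replicate 2, an alternative chosen after seeing the data, the differences were 0.08 for *Clock*, -0.33 for *Per3*, -0.14 for *Cry2*, -0.37 for *Nr1d1*, -0.40 for *Dbp* and -0.32 for *Tef*, and *Dbp* and *Tef* alone stayed under an unadjusted p of 0.05. With wild-type replicate 1 left out as well, they were 0.07, -0.22, -0.12, -0.47, -0.33 and -0.21 in the same order, and *Nr1d1*, *Dbp* and *Tef* stayed under it.

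**Figure D3:**
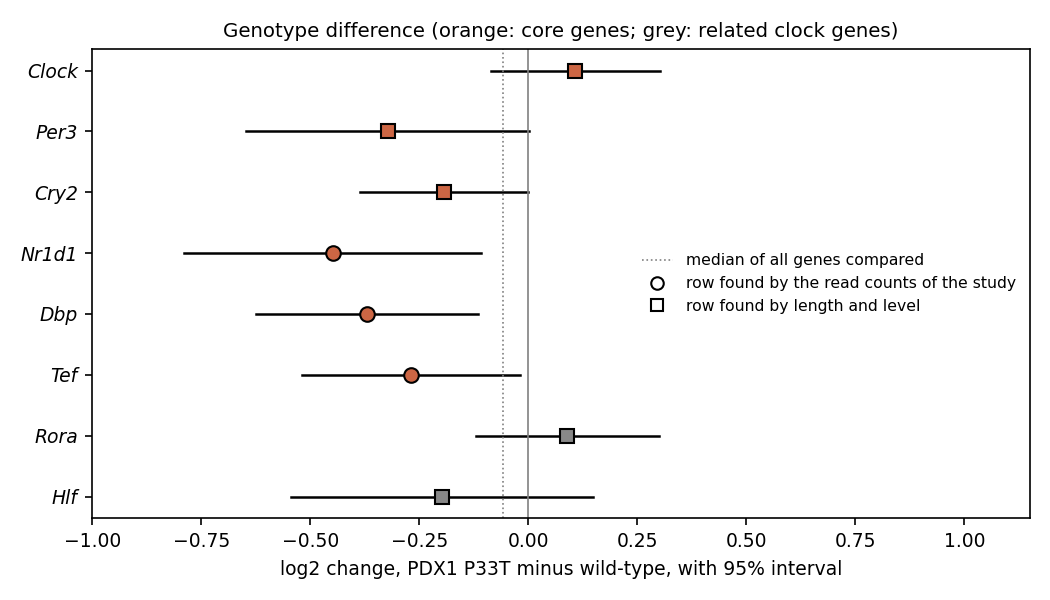
Log2 difference, PDX1 P33T minus wild-type, with its 95% limma interval, for the 6 clock genes compared (orange) and 2 related clock genes (grey), circles for rows found by the published reads, squares for rows found by length and level, and a dotted line at the median of all 4713 genes (-0.06). *Cry2* (barely), *Nr1d1*, *Dbp* and *Tef* lie left of 0 with their intervals, and none of the 8 was called. The genes drawn as circles came from a list made on these same samples, so their intervals are not independent evidence.

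How the genes moved together between libraries was described without a test. In the mutant, replicates 1 and 4 held the highest pair of values for *Nr1d1* and *Dbp*, and the lowest pair for *Clock*, *Per2*, *Cry1* and *Nr1d2*. These are 6 of the 10 genes. The same pair of libraries was at an end of the order in 45.0% of all 11190 genes of at least 1 FPKM, so the split is close to what the table shows in general. Replicate 2 was the highest for 4 of the genes (*Clock*, *Per3*, *Nr1d2*, *Tef*) and the lowest for 3 (*Per1*, *Cry2*, *Nr1d1*). It lay farthest from its group over all genes as well (SD 0.486). The share of all genes with replicate 2 at an end was not computed, so this is not a trait of clock genes.

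The spread over mutant libraries was small. Apart from *Nr1d2*, the highest library exceeded the lowest by 1.16-fold to 1.48-fold, and 8 of the 10 genes had an SD on the log2 scale below the median of all genes, 0.188. *Dbp* (SD 0.229) and *Nr1d2* (0.781) were above it. *Tef* lay at the 14.2nd percentile of all genes and *Nr1d2* at the 99.1st.

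In wild-type islets replicate 1 stood out in clock outputs. Over the 4713 genes compared it lay farther from its group (SD 0.506) than every other wild-type library but replicate 3. It also had the lowest sums of endothelial markers (28.1 FPKM, others 41.5 to 146) and of macrophage markers (22.1, others 26.1 to 57.3), whose part in its clock values was not tested. It was the highest library for *Per3*, *Dbp* and *Tef*, and also for *Hlf* and *Rora*, and the lowest for *Bmal1*. It was 0.42 above its group on the log2 scale for *Per3*, 0.31 for *Dbp* and 0.47 for *Tef*, whereas its deviation for *Nr1d1* was -0.40. *Nr1d1* was high in wild-type replicates 4 and 5, where *Per3*, *Tef* and *Cry2* were below their means. Wild-type libraries varied more than mutant libraries for 4 of the 6 genes compared, with an SD on the log2 scale of 0.343 against 0.179 for *Nr1d1* and 0.244 against 0.0959 for *Tef*. The order was the other way for *Clock* and for *Dbp*, the latter 0.166 against 0.229. Over genes of at least 1 FPKM the median SD was 0.205 in wild-type (3552 genes compared) and 0.188 in the mutant (11190 genes). The share of all genes that varied more in wild-type was not computed, so the 4 are not a trait of clock genes. These differences in spread were not tested.

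**Figure D4:**
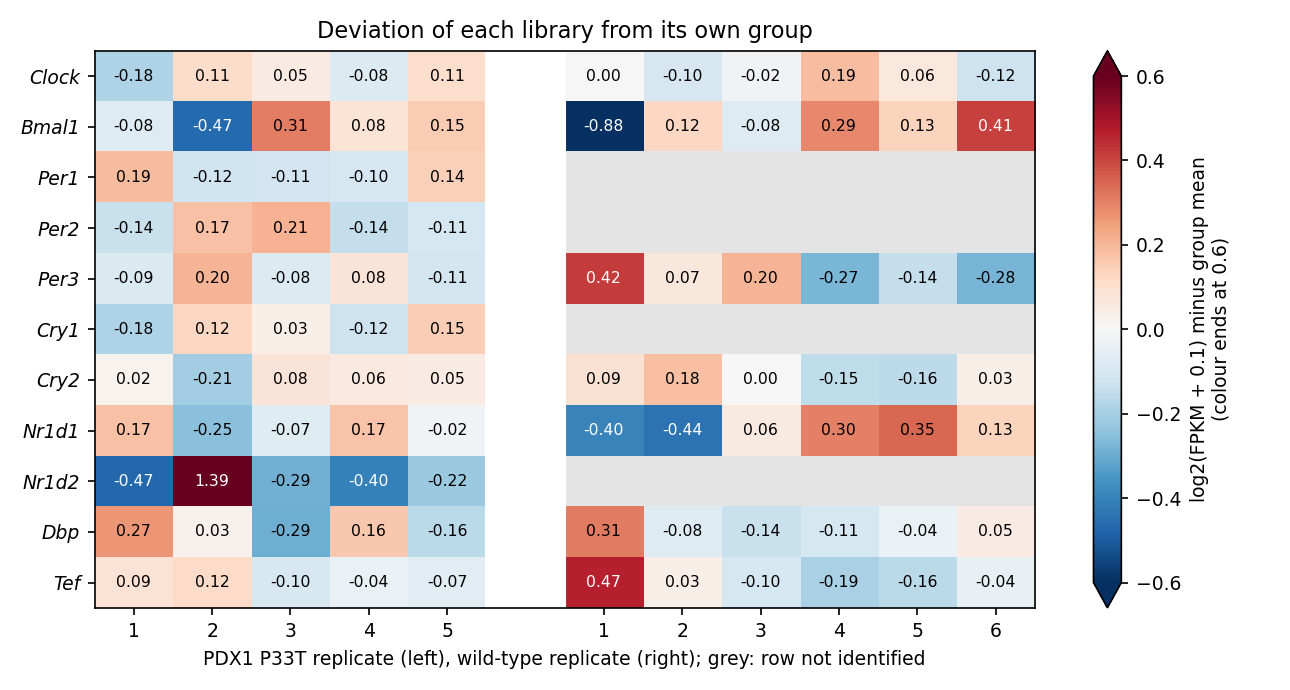
Deviation of each library from the mean of its own genotype on the log2(FPKM + 0.1) scale, red above and blue below, for the 10 clock genes and *Bmal1*, with grey where the wild-type row was not identified and the colour ending at 0.6. *Nr1d2* in PDX1 P33T replicate 2 (1.39) and *Bmal1* in wild-type replicate 1 (-0.88) are the deepest cells.

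The profile most like that of *Dbp* was sought over the 11 libraries, each centred within its genotype, among 3515 genes of at least 1 FPKM outside the clock lists. The nearest included *Spsb2*, *Mdh2*, *Mif* and *Pla2g2d*, with root-mean-square differences of 0.108 to 0.129 on the log2 scale. *Tef*, at 0.134, would have been number 8, and *Nr1d1*, at 0.325, number 2588. A flat profile would have been number 171, at 0.178, so most genes were farther from *Dbp* than a gene that did not vary.

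The rest of the pathway was read from a list of 36 genes, of which 12 could be compared. Among these 0 were called in either direction by limma, 3 had an unadjusted p under 0.05, all 12 overlapped between genotypes, and the median log2 difference was 0.01. *Fos* and *Nr4a1*, immediate early genes named after their values were seen, had log2 differences of -0.91 (SE 0.26, limma adjusted p = 0.498) and -0.93 (SE 0.35, limma adjusted p = 0.499). Without wild-type replicates 1 and 3 and PDX1 P33T replicate 2 they were called, at -0.91 (limma adjusted p = 0.0395) and -0.89 (limma adjusted p = 0.0113), whereas under the other 23 alternatives the adjusted p ran from 0.121 to 1. Both rows were found by the list the study made on these samples. *Rora* had a log2 difference of 0.09 (SE 0.10, 95% interval -0.12 to 0.30, limma adjusted p = 1), and *Rorb* gave 1 to 7 reads in each mutant library.

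Other regulators could be read in the mutant alone. *Nfil3*, which opposes DBP and TEF at D-boxes, had 7.63 to 12.5 FPKM with replicate 2 lowest. *Bhlhe41* (5.83 to 7.26) lay above *Bhlhe40* (4.14 to 5.56), both repressors at E-boxes, with no overlap between the ranges. *Ciart*, a further repressor of CLOCK and BMAL1, had 1.88, 1.14, 1.00, 1.53 and 1.46 FPKM, highest in replicates 1 and 4 as were *Nr1d1* and *Dbp*. Its wild-type row was identified under the wider limit alone, and it was not called (log2 difference -0.40, SE 0.19, limma adjusted p = 0.581).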

How the data were processed

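RNA of whole islets was sequenced in 11 libraries. Per the methods, the authors filtered reads, aligned them to the mouse genome, counted them per gene, and deposited FPKM values per library. The submitters' processing notes name fastp 0.23.1, HISAT2 2.0.5, featureCounts 1.5.0-p3, DESeq2 1.20.0 and the builds GRCm39 and mm39. The coordinates printed here come from another build, GRCm38 (GENCODE vM21, RefSeq GRCm38.p6). The methods name both a stranded and an unstranded protocol, so genes that overlap on opposite strands are uncertain. The deposited table and the 11 files of single libraries hold the same values.

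Mutant values were on their own rows, but across genes the correlation between genotypes was 0.125 to 0.139 as deposited. Wild-type rows were identified for 1711 genes by the read counts the study published, 39 of which are listed at 0 in every mutant library and were left out. The rest were matched by the length at which all values are whole reads, with at least 100 reads per genotype, genotype means no more than 4-fold apart, and every other candidate at least 16-fold away. All 396 genes found both ways took the same row. A change of more than 4-fold cannot appear among genes found by length and level. A wider limit, no other candidate within 4-fold, was chosen after seeing the data.

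The deposited values are FPKM and not counts, so limma 3.58.1 (R 4.3.3) was applied on the log2(FPKM + 0.1) scale without covariates, using its trended and robust moderation, after being tested on simulated data. Adjustment was by Benjamini-Hochberg over all 19329 genes, with genes lacking a wild-type row taken as unchanged. A call took an adjusted p no higher than 0.05 together with a 1.5-fold change or more. For each gene an exact permutation test, two-sided, ran over the 462 ways to choose 5 of 11 libraries. Python 3.11.15, pandas 2.3.3, numpy 2.4.6, scipy 1.17.1 and matplotlib 3.10.9 were used. All 10 genes are named, and of the 36 related genes *Bmal1*, *Bmal2*, *Npas2*, *Rora*, *Rorb*, *Hlf*, *Nfil3*, *Bhlhe40*, *Bhlhe41* and *Ciart*, with any other that was called or did not overlap. Of the 5 profiles nearest to *Dbp*, 4 are named. A few items are not reported here. Genes and lists were chosen with earlier results of these data known. Alternatives covered the pseudocount, a filter on low levels, scaling, blocks, the moderation, the threshold, the adjustment, the row rule and each library left out. Read numbers cover counting error only.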

Additional observations from a re-analysis of the deposited data

Results flagged for a closer look

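In 8 of 30 groups of values tested, for the 10 clock genes and 11 related genes, 1 library lay far from the others by Dixon's criterion. For independent groups, chance gives about 1 in 20, and groups that share libraries are not independent. The share flagged over all genes was not computed, so the 8 groups are not a trait of clock genes. PDX1 P33T replicate 2, which also stood apart beyond the clock genes, accounts for 3 of the 8: *Nr1d2* was at 30.4 FPKM against 8.32 to 9.90 in the other 4 mutant libraries, *Cry2* at 8.44 against 9.91 to 10.3, and *Nfil3* at 7.63 against 11.3 to 12.5. Wild-type replicate 1, which stood apart likewise, accounts for 4: *Dbp* was at 18.8 FPKM against 13.7 to 15.6 in the other wild-type libraries, *Tef* at 14.7 against 9.24 to 10.8, *Hlf* at 2.25 against 1.11 to 1.505, and *Rora* at 2.07 against 1.63 to 1.80. *Dbp* and *Rora* only just passed, with a gap over range of 0.630 and 0.626 against a limit of 0.625. The last of the 8 groups is *Bmal2* in PDX1 P33T replicate 1, at 0.0523 FPKM against 0.0357 to 0.0381, which rests on 8 reads.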

How the results depend on the processing

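Under 24 alternatives, 11 of which left out a library, 0 of the clock genes compared were called, and the lowest limma adjusted p was 0.121. None of the 140 recomputed differences of the clock genes changed sign. Part of these could not change: the threshold, the adjustment, the moderation, the filter on low levels and the row rule leave each difference as it was. A stricter threshold also could not add a call. The count of clock genes lower at an unadjusted p under 0.05, 4 with all libraries, was 2 with median scaling of the libraries, 2 without wild-type replicate 3 and PDX1 P33T replicate 2, 3 with wild-type replicate 1 left out as well (both added after seeing the data), and 2 when the replicate block followed the numbering in the titles; the cause was not tested. Leaving out 1 library at a time gave 2 to 5, with 2 each without wild-type replicate 1 or 2 or without PDX1 P33T replicate 3, 4 or 5. Of the related genes 0 were called except without those 3 libraries, where 2 were (*Fos* and *Nr4a1*). With the replicate block the log2 difference of *Per3* was -0.38 by the titles' numbering and -0.28 by that of the libraries. Same-numbered libraries had correlations in their deviations of -0.552 to 0.0665 by the titles and -0.552 to 0.0751 by the library numbers. Correlations over all genes, in which the libraries that stand apart weigh heavily, cannot settle whether the numbers pair the samples. With a pseudocount of 1 *Per3* moved from -0.32 to -0.14. *Tef* without wild-type replicate 1 was -0.18. Among all genes, 1 to 27 were called over the alternatives, the most without those 3 libraries, against 4. Of the 10 clock genes *Per3* had the fewest reads, *Bmal2* and *Rorb* had 8 or fewer in every mutant library, and 75.6% of genes had no usable wild-type row.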
